A study of Homo sapiens with 47 samples.

Results

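The genes described here are 10 members of the intermediate filament family: the keratins *KRT7*, *KRT8*, *KRT18* and *KRT19*, the type III genes *VIM* and *PRPH*, the progenitor gene *NES* and the neuronal filament genes *INA*, *NEFL* and *NEFM*. They were listed by name from the 58051 genes given for every library, with no threshold on a measured value, and all 10 were found by their Ensembl identifiers. RNA was sequenced from 47 libraries of WA09 (H9) cells, an established human embryonic stem cell (hESC) line, of which 35 were whole cultures and 12 were fractions. Each of 3 differentiations (r1 to r3) gave whole cultures at 12 time points, except that P9 held r1 and r2 only, and gave epithelial (EPI) and mesenchymal (MES) fractions at P5 and P8.

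The t0 cells were undifferentiated hESCs on Matrigel in mTeSR1. For the 36h point they had spent 36 h in N2B27 without vitamin A together with CHIR-99021 (a WNT pathway agonist), rhFGF2, AGN193109 (an inverse agonist of retinoic acid receptors) and Y-27632 (a ROCK inhibitor), and the labels call them neuromesodermal progenitor-like (NMP-like). Cells at P1 to P10 stayed in that medium through 1 to 10 passages, so no passage was without any of its 4 agents, and the labels call these whole cultures neural progenitors. EPI and MES cells were separated by how readily TrypLE detached them, with no marker or sort, and are labelled neural progenitors and neural crest (NC), respectively. All libraries came from 1 cell line, so the differentiations are repeats of a protocol and not of a genotype.

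Intermediate filaments are assembled from coiled-coil proteins, and each cell type carries its own set. Type I keratins (*KRT18*, *KRT19*) pair with type II keratins (*KRT7*, *KRT8*) and are typical of simple epithelia, including pluripotent stem cells in culture, where they join desmosomes through linker proteins. Vimentin, the product of *VIM*, forms filaments on its own and is typical of mesenchymal cells and of many progenitors. Nestin (*NES*) assembles with vimentin in dividing neural progenitors, and α-internexin (*INA*), the light and medium neurofilament chains (*NEFL*, *NEFM*) and peripherin (*PRPH*) are typical of neurons.

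The family is recognised by the end of its central rod, where the coding sequences of distant members remain alike. The stretches below, 45 coding bases each, are shown because such likeness decides how far short reads can be assigned to 1 gene. They were read 5′ to 3′ on the coding strand from GENCODE 29 on GRCh38 around the helix termination motif, and capitals mark the 16 bases that are identical in the 6 genes shown.
KRT7: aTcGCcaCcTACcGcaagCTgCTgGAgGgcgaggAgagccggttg
KRT18: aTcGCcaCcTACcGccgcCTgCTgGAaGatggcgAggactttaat
KRT19: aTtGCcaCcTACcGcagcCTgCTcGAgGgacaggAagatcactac
PRPH: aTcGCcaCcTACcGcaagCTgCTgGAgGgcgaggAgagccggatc
NES: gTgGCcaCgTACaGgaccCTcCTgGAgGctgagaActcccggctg
INA: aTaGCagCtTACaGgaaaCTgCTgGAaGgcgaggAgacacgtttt

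Over these 45 bases, *KRT7*, a type II keratin, shared 43 with *PRPH* and 33 with *INA*, whereas it shared 29 and 31 with the type I keratins *KRT18* and *KRT19* and 30 with *NES*. Sharing over a whole read was rarer. Of all windows of 75 bases, the read length used, along 1 transcript of each member, none of *KRT7*, *KRT19*, *VIM*, *PRPH*, *NES*, *INA*, *NEFL* or *NEFM* occurred in the same orientation in a transcript of another gene. For *KRT8*, 20% of windows recurred in other genes, led by its pseudogenes *KRT8P3*, *KRT8P33* and *KRT8P45*, and for *KRT18* the share was 5.85%.

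Overlap with genes on the opposite strand was more common. *KRT8* (chr12:52897187-52949954, minus strand) and *KRT18* (chr12:52948871-52952901, plus strand) overlap over 1084 bases, and 19.7% of *KRT18* windows also lie in a *KRT8* transcript in reverse. The same share was 38.8% for *VIM* (chr10:17228259-17237593, plus strand), through *VIM-AS1* and *AL133415.1*. It was 41.4% for *NEFM* (chr8:24913012-24919098, plus strand), 27.8% for *PRPH* (chr12:49293252-49298686, plus strand), 10.4% for *NEFL* (chr8:24950955-24957110, minus strand) and 9.05% for *KRT7* (chr12:52232520-52252186, plus strand). *KRT19* (chr17:41523617-41528308, minus strand), *NES* (chr1:156668763-156677397, minus strand) and *INA* (chr10:103277163-103290351, plus strand) had no such window. The strand setting of the counting is not given in the sources used here, so reads in these overlaps cannot be told apart. Counts assigned to *VIM-AS1* were at most 0.746% of the counts of *VIM* and *VIM-AS1* together in any library. Those of *AF106564.1*, opposite *NEFM*, ranged from 1.73% to 24.5% of the counts of *NEFM* and *AF106564.1* together.

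The libraries held 13029491 to 64082859 expected counts, with a median of 47292229. Library r1 of P10 stood apart from r2 and r3, with *NEFL* at 27.9 TPM (a level corrected for transcript length and library size) against 1.46 and 1.15 TPM, and r1 of P1 stood apart in the same gene with 64.8 against 9.72 and 8.04 TPM. Over all genes, the chi-square of the counts per degree of freedom between r1 and the others was 330 and 436 at P10, 170 and 266 at P1, 251 and 272 at P2 and 121 and 174 at P3, against 146, 64.9, 55.6 and 33.8 between r2 and r3. The P10 results whose call changes without its r1 are given both ways. Labels were checked against marker genes: *POU5F1* was at 1569 to 1749 TPM at t0 and at no more than 0.9 TPM at P5. *SOX2*, a marker of pluripotent and neural progenitor cells, ran from 135 to 215 TPM at P5 but was at 4.88 and 5.98 TPM at P9, which goes against the label of neural progenitors there. At P10 it ran from 0.5 to 214 TPM, so the libraries of that group differ in this respect. In the P9 libraries, the summed TPM of 10 NC and mesenchymal markers was 1242 and 1326, against 198 to 990 at P8.

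Levels are given in TPM, which allows genes to be compared with each other. Changes are given as log2 fold changes of normalized counts, with their standard error (SE), from the quasi-likelihood test of edgeR, with the differentiation as a block and p-values adjusted over all genes tested by the Benjamini-Hochberg method. A gene was called at an adjusted p under 0.01, a change of at least 2-fold and a mean over the compared libraries of 100 normalized counts or more. In bulk RNA a smaller number of cells of a type and less RNA per cell cannot be told apart.

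Keratins made up most of the filament transcripts at t0 and *VIM* most of them later. At t0 the 4 keratins made up 62.2% to 68.4% of the summed TPM of the 10 genes and *VIM* 18% to 24.1%. At P5 the keratins made up 5.61% to 11.7% and *VIM* 65.1% to 75.8%, and in the P9 libraries the keratins were at 1% and 0.855% and *VIM* at 96.4% and 94.6% (r1 and r2). The summed TPM itself was 914 ± 30.6 (SD, n = 3) at t0, 3297 ± 561 (n = 3) at P2, 1474 ± 112 (n = 3) at P6 and 3131 and 3789 in the P9 libraries. The ratio of *VIM* to summed keratin TPM was 0.264 to 0.387 at t0, 4.03 to 33.5 at P8 and 96.4 and 111 at P9. In P10 r1 it was 3.98, within a group whose highest value was 155.

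**Figure D1:**
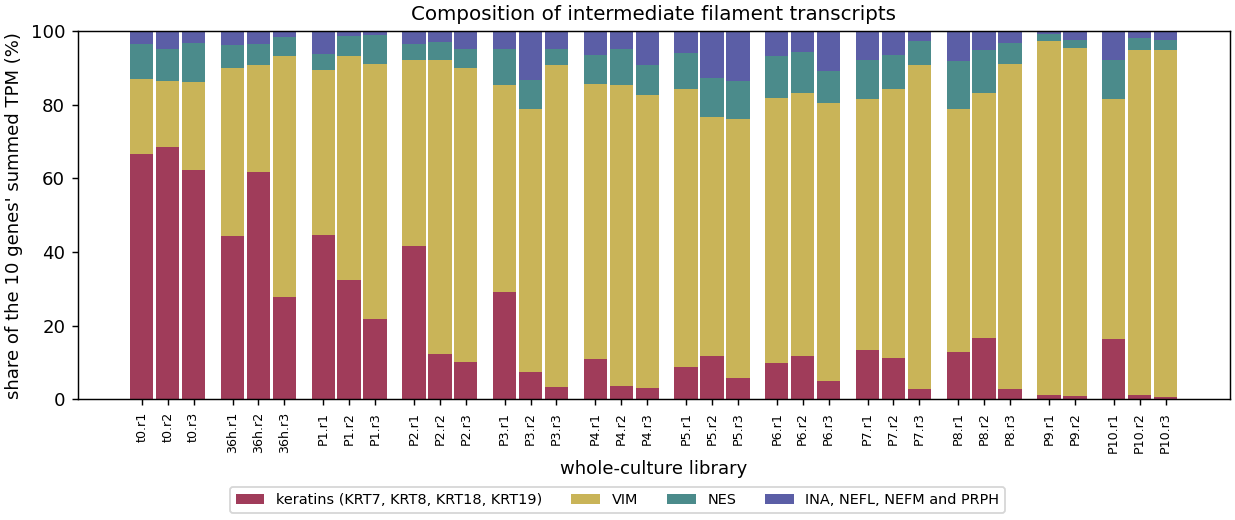
Share of the summed TPM of the 10 genes (vertical axis, percent) held by the keratins, *VIM*, *NES* and the neuronal filament genes in each of the 35 whole-culture libraries, in order of time. Keratins hold 62.2% to 68.4% at t0 and 0.855% to 1% at P9, while P10 r1, at 16.4%, sits far above the other P10 libraries.

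Counted over the 11 time points set against t0, 53 of 110 tests of a member were called. At 36h 2 of the 10 members were called (*VIM* higher, *KRT7* lower), while 2.72% of all genes tested were. At P1 it was 3 (*VIM* and *NES* higher, *KRT7* lower; 8.79% of all genes), at P2 2 (*VIM* higher, *KRT7* lower; 12.9%) and at P3 4 (*VIM* and *INA* higher, *KRT7* and *KRT19* lower; 13.7%). From P4 onward 6 members were called at every time point, while the share of all genes was 14.1% at P4, 14.2% at P5, 14.6% at P6, 15.2% at P7, 15.4% at P8, 19.8% at P9 and 18.3% at P10. These 6 were *VIM* and *INA*, which were higher, and *KRT7*, *KRT8*, *KRT18* and *KRT19*, which were lower, except that at P8 *NES* was called as higher and *KRT8* was not called. The members' median log2 fold change against t0 was 0.97 at P5 and -2.31 at P9, beside -0.04 and -0.02 over all genes tested. *KRT7*, described below by bounds from P5 on, lies below these medians by its fitted value and by its bound. All comparisons with t0 share the same 3 t0 libraries. A single test of any difference among the 12 time points called 7 members (*KRT8*, *KRT18*, *KRT19*, *VIM*, *NES*, *INA* and *NEFL*), beside 39.3% of all genes. *NEFM* missed the threshold (adjusted p = 0.11), and *KRT7* and *PRPH* passed it on p but not on the mean count. Without r1 of P1, *VIM*, *NES* and *KRT7* were called at P1 as with it, and no other member was. Without replicate 1 of all groups, *NEFL* was also called at P2 (log2 fold change 1.85, adjusted p = 4.7e-04), and at P3 *KRT8* (-2.31, adjusted p = 0.0014), *KRT18* (-2.21, adjusted p = 5.9e-04) and *NEFL* (1.65, adjusted p = 0.001) were called and *INA* was not, beside 14.7% of all genes at either passage.

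**Figure D2:**
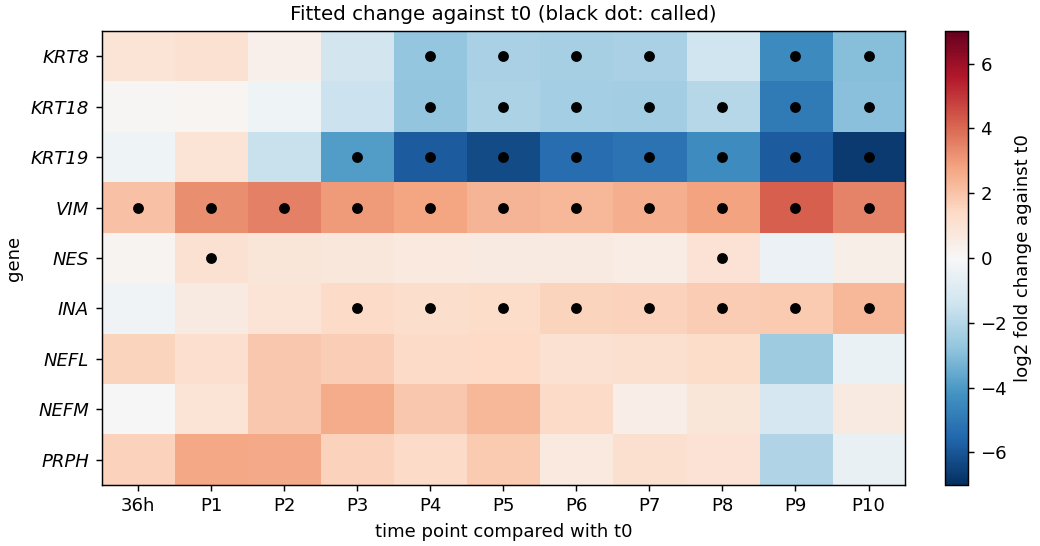
Fitted log2 fold change against t0 (colour) of 9 members (rows) at 11 time points (columns), with a black dot where the gene was called. The *KRT8* and *KRT18* rows turn from positive or near 0 to below 0 between P2 and P4, *KRT19* is below 0 from P2 on, the *VIM* row is called throughout, and *KRT7* is left out because most of its later libraries had no counts.

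*KRT8*, the type II keratin of simple epithelia, was at 209, 224 and 186 TPM at t0, at 278, 615 and 299 TPM at 36h and at 532, 583 and 305 TPM at P1 (r1 to r3 in this order here and below). All 3 P1 libraries lay above all 3 t0 libraries, but the increase was not called (log2 fold change 1.06, SE 0.67, adjusted p = 0.23). At P2 it was still at 554 TPM in r1 but at 203 and 198 TPM in r2 and r3. At P3 r1 held 292 TPM and r2 and r3 45.4 and 45.3 TPM. At P4 the values were 94.9, 23.5 and 19.4 TPM, below every t0 library (log2 fold change -2.70, SE 0.71, adjusted p = 0.0033). This call was lost without the replicate block (adjusted p = 0.035), without replicate 2 (0.035), without replicate 3 (0.11) and without the 2 shallowest libraries (0.02). The decline came a passage or more later in r1 than in r2 and r3, which stayed close to each other.

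The level of *KRT8* then stayed low, with partial returns in r2 at P8 and in r1 at P10. It was at 59.3, 62.5 and 31.1 TPM at P5 and at 81.2, 183 and 34.3 TPM at P8, where r2 came close to the lowest t0 library and the change against t0 was not called (log2 fold change -1.41, SE 0.68, adjusted p = 0.088). In the P9 libraries it was at 17.3 and 13 TPM (log2 fold change against t0 -4.44, SE 0.92, adjusted p = 3.1e-04). At P10 r1 held 124 TPM, while r2 and r3 held 7.28 and 8.14 TPM. With all 3 P10 libraries the log2 fold change of *KRT8* against t0 was -2.96 (adjusted p = 0.0015), and without P10 r1 it was -4.56. The call was lost without the replicate block (-2.33, adjusted p = 0.029), without replicate 2 (-2.40, adjusted p = 0.026) and without replicate 3 (-2.21, adjusted p = 0.11). Markers of surface ectoderm and amnion (10 genes) summed to 20.6 to 33.4 TPM at P5 and 85.2 to 247 TPM at P8. In the P9 libraries, where *KRT8* was low, they summed to 349 and 461 TPM. The sum does not stand for each marker: the median log2 fold change of the 9 tested from P8 to P9 was -1.20, beside -0.02 over all genes. In that step 0 of these markers were called, beside 1.21% of all genes. At P8, 3 were called as higher and 1 as lower than t0, beside 3335 of 21649 genes. Their part in the *KRT8* level was not tested.

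*KRT18*, the type I partner of *KRT8*, also fell by P4. Unlike *KRT8*, its P1 libraries did not all lie above t0 (log2 fold change 0.15, SE 0.52, adjusted p = 0.85). *KRT18* was at 295, 310 and 270 TPM at t0, at 589, 414 and 190 TPM at P1 and at 115, 33.3 and 30.7 TPM at P4 (log2 fold change P4 against t0 -2.76, SE 0.55, adjusted p = 2.9e-04). At P8 the values were 95.3, 152 and 35.6 TPM (log2 fold change against t0 -2.01, SE 0.54, adjusted p = 0.0033) and at P9 12.7 and 15.8 TPM (-4.97, SE 0.73, adjusted p = 6.2e-06). The P4 and P8 calls were lost without the replicate block (adjusted p = 0.014 and 0.061) and without replicate 3 (0.031 and 0.15). The P9 call was lost under none of the alternatives that kept both P9 libraries. Across all 47 libraries the log2 CPM of *KRT8* and *KRT18* correlated at r = 0.968, a description over libraries that share differentiations. For each of these genes, the other was the most alike of all 13297 genes whose mean reached 100 normalized counts.

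The balance between the pair was not constant. The ratio of *KRT8* to *KRT18* TPM was 0.69 to 0.722 at t0, 1 to 1.44 at 36h and 1.08 to 1.14 at P2, returned to 0.63 to 0.687 at P5 and was 0.852 to 1.2 at P8. The t0 and P5 ranges lay wholly below the 36h and P2 ranges. Pseudogenes also take reads. The counts assigned to 50 *KRT8* pseudogenes made up 1.54% to 36.1% of the counts of *KRT8* and these pseudogenes together, with the highest share in P10 r2. For 67 *KRT18* pseudogenes the share, taken in the same way, was 0.368% to 11.8%. When pseudogene counts were added to the parent genes, the *KRT8* log2 fold change at P10 against t0 moved from -2.96 to -2.75.

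*KRT19*, a type I keratin without a tail domain, was the lower of the type I pair in most libraries. It was at 88.1, 99.4 and 75.6 TPM at t0 and at 91.1, 140 and 210 TPM at P1, where the difference from t0 was not called (log2 fold change 0.96, SE 1.01, adjusted p = 0.50). Its highest P1 library was r3, where *KRT8* and *KRT18* were lowest, so that the ratio of *KRT19* to *KRT18* ran from 0.155 to 1.1 within P1. At P3 the values were 28, 0.63 and 1.62 TPM (log2 fold change against t0 -3.88, SE 1.15, adjusted p = 0.0081) and at P5 2.93, 1.43 and 0.52 TPM (-6.26, SE 1.28, adjusted p = 3.2e-04). Without replicate 3 neither was called (adjusted p = 0.15 and 0.024). Between P4 and P10 no whole culture exceeded 12.2 TPM, which was reached by P8 r2, the whole culture with the highest *KRT8* after P3.

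*KRT7*, the other type II keratin, was the lowest keratin at t0 and the only one called as lower at 36h. It was at 16.8, 11.2 and 16.9 TPM at t0 and at 2.15, 0.81 and 0.33 TPM at 36h (log2 fold change -4.67, SE 0.88, adjusted p = 0.0022), so the groups did not overlap. That call was lost without the replicate block (adjusted p = 0.019), without replicate 2 (0.08) and without replicate 3 (0.097). At P1 it was at 0.97, 0.64 and 0 TPM. At P3 and from P5 to P10 no whole culture held more than 3 counts, and over all 47 libraries 36 held 3 counts or fewer and 26 none. Against these groups the t0 mean of 440 normalized counts was at least 88.2-fold (P6) to 179-fold (P7) higher, with 3 counts per library as the floor, which covers counting error only.

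**Figure D3:**
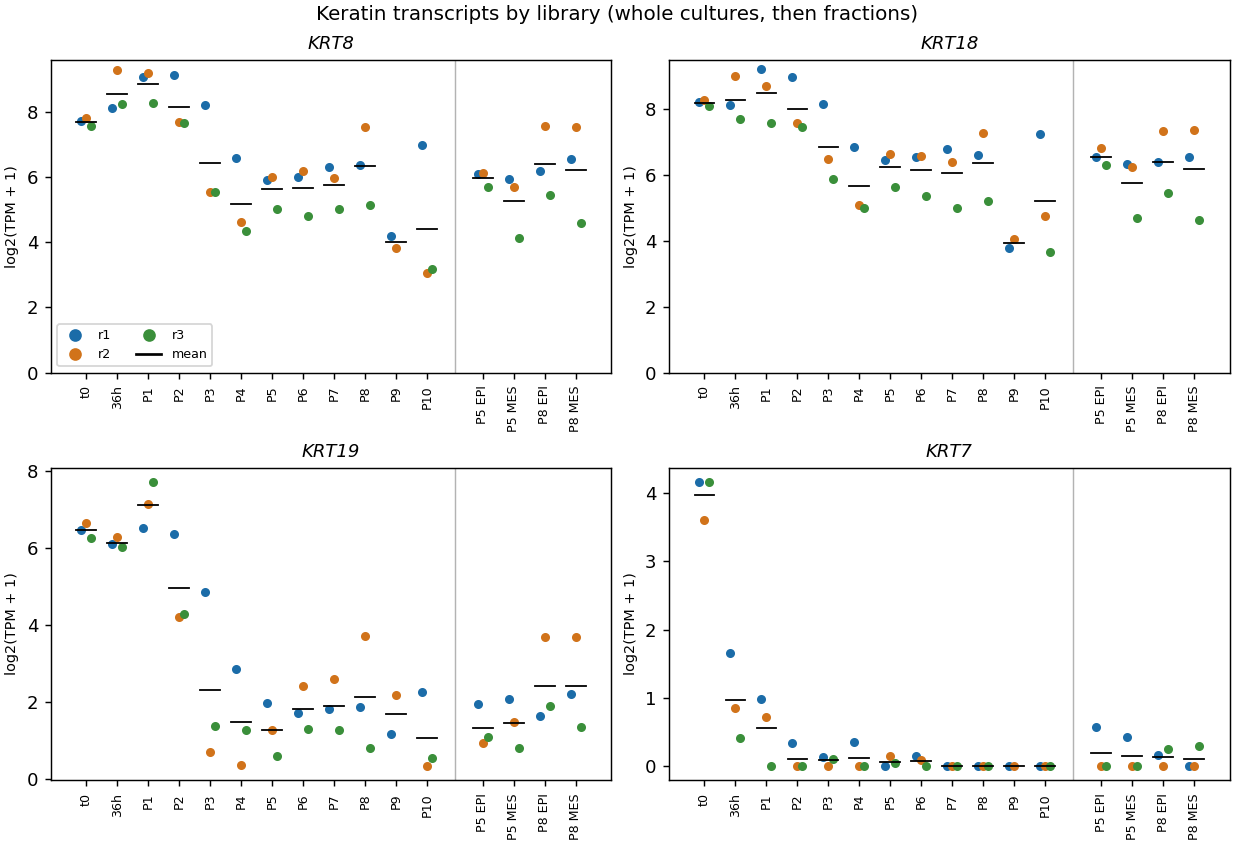
Level of the keratins as log2(TPM + 1) in every library, with whole cultures left of the grey line and fractions right of it (points: libraries coloured by differentiation, bars: group means). *KRT8* and *KRT18* fall between P2 and P4 and are lowest at P9 and in P10 r2 and r3; r1 (blue) falls later, with *KRT8* at 292 TPM at P3 against 45.4 and 45.3 TPM.

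Other genes that could build or anchor a keratin network were examined beside these keratins. Of 17 further keratins, 5 were tested in the whole cultures. None was called at any time point against t0, beside 588 (36h) to 4276 (P9) of 21649 genes. Nor was any called between neighbouring time points, beside 0 to 262 genes in the steps after 36h. The summed TPM of the 17 keratins was 20.4 to 49.7 over all libraries, most of it *KRT10* (24.2 TPM at t0 and 29.4 TPM at P5 on average). *KRT5*, which marks stratified epithelium, averaged 3.92 TPM at P1 and at most 0.67 TPM at the other time points, and its partner *KRT14* averaged at most 0.07 TPM. Of 17 desmosome and filament linker genes, 2 were called as higher and 4 as lower at P5, where 14.2% of all genes were called, with a median log2 fold change of -0.45 beside -0.04 over all genes. The desmosome genes *PKP3* (4.31 TPM at t0 and 0.0333 TPM at P5 on average, adjusted p = 4.1e-07) and *PPL* (12.1 and 0.303 TPM, adjusted p = 5.2e-07) and the linker *EPPK1* (2.8 and 0.0967 TPM, adjusted p = 2.4e-05) fell, whereas the desmosomal genes *DSP* (log2 fold change 1.91, adjusted p = 0.0023) and *DSC3* (2.64, adjusted p = 8.5e-06) rose. *DSP*, whose product ties filaments to desmosomes, averaged 34.4 TPM at t0 and 153 TPM at P5.

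Markers of epithelial cells other than keratins fell earlier than *KRT8* and *KRT18* were called as lower. All 10 epithelial markers were lower at P5 than at t0 and called (14.2% of all genes were), with a summed TPM of 1036 to 1238 at t0 and 3.81 to 8.88 at P5. Their fall was under way at 36h (347 to 675 TPM, 3 of 10 called beside 2.72% of all genes), and 9 of 10 were called as lower at P1 (8.79% of all genes) and all 10 at P2 (12.9%). At P2 the log2 fold change was 0.34 for *KRT8* and -0.32 for *KRT18*, neither of them called. *CDH1*, the epithelial cadherin, averaged 152 TPM at t0, 32 TPM at 36h and 0.1 TPM at P2. The 6 pluripotency markers summed to 4414 to 4942 TPM at t0 and 659 to 898 TPM at P5, with 4 of 6 called as lower beside the same 14.2% of all genes. The part of either marker set in the keratin decline was not tested.

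*VIM* was called as higher than t0 at each of the 11 time points. It was at 188, 170 and 212 TPM at t0 and at 642, 574 and 1356 TPM at 36h (log2 fold change 2.05, SE 0.33, adjusted p = 1.8e-04), so every 36h library lay above every t0 library. The 36h call was lost without replicate 2 (2.17, adjusted p = 0.034), without replicate 3 (1.72, adjusted p = 0.03) and when only the compared libraries were fitted (2.03, adjusted p = 0.013). At P2 the values were 1374, 2668 and 3059 TPM (log2 fold change 3.51, SE 0.34, adjusted p = 5.1e-08), and at P6 1146, 1039 and 1036 TPM (2.32, SE 0.33, adjusted p = 4.6e-06). Library r1 was the lowest at P2, whereas the P6 libraries lay close together. Markers of paraxial mesoderm (6 genes) summed to 8.3 to 10.8 TPM at t0. They summed to 12.9 to 639 TPM at 36h and 88.5 to 334 TPM at P2. Of these, 1 was called as higher at 36h (588 of 21649 genes were called) and 4 at P2 (2784 of 21649). Of 10 NC and mesenchymal markers, 2 were called as higher at 36h, and 3 as higher and 2 as lower at P2. The part of these markers in the *VIM* rise was not tested.

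Later the differentiations separated again. *VIM* was at 934, 1401 and 2370 TPM at P8, at 3017 and 3584 TPM at P9 and at 1112, 2747 and 3136 TPM at P10. The P9 libraries exceeded all P8 libraries, but the step from P8 to P9 was not called (log2 fold change 1.38, SE 0.35, adjusted p = 0.016). *VIM* was the most abundant of the 10 genes in every whole-culture library from P1 onward. The gene most alike to *VIM* was *VIM-AS1* (r = 0.924 over 47 libraries), which lies opposite it and whose reads cannot be told apart from those of *VIM* where they overlap, followed by *MAGI2-AS3* and *NKD1* (r = 0.896 each).

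*NES*, whose product assembles with vimentin, kept to a narrower range. It was at 86, 82.1 and 91.3 TPM at t0, at 114, 189 and 254 TPM at P1 (log2 fold change 1.08, SE 0.28, adjusted p = 0.0042; 1.37 without P1 r1) and at 185, 244 and 152 TPM at P8 (1.01, SE 0.28, adjusted p = 0.004). Both calls were lost without replicate 2 (adjusted p = 0.098 at P1 and 0.15 at P8) and without replicate 3 (0.11 and 0.014). At P5 the values of 170, 148 and 146 TPM lay above the t0 range, but the change was below 2-fold and not called (0.65, SE 0.28, adjusted p = 0.055). In the P9 libraries *NES* was at 54.6 and 86.8 TPM and at P10 at 182, 94.3 and 91 TPM. The ratio of *VIM* to *NES* TPM was 2.07 to 2.33 at t0, 6.13 to 7.73 at P5 and 41.3 and 55.3 at P9.

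*INA*, the filament gene that appears early in neurons, rose slowly over the passages. It was at 10.3, 12.9 and 9.15 TPM at t0 and at 10.4, 10.6 and 7.15 TPM at 36h, without a call (log2 fold change -0.26, SE 0.35, adjusted p = 0.71). At P3 it was at 36.1, 28.9 and 23.7 TPM (1.33, SE 0.36, adjusted p = 0.004), at P8 at 50.9, 49.1 and 26.7 TPM (1.77, SE 0.36, adjusted p = 3.0e-04) and at P10 at 44.4, 41.3 and 72.6 TPM (2.30, SE 0.37, adjusted p = 1.6e-05; 2.56 without P10 r1). Leaving out any replicate ended the P3 call (adjusted p = 0.012 to 0.029) but not those at P8 and P10. From P3 to P8 r3 was the lowest of the differentiations at every passage. The P9 libraries were far apart, at 20.4 and 73.9 TPM, and the latter was the highest value of the gene in any library.

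*NEFL*, the light neurofilament chain, stayed between 14.1 and 38.5 TPM from P3 to P8 and was low later. It was at 7.08, 13 and 7.22 TPM at t0, at 29.4, 25 and 41.8 TPM at P2 (log2 fold change 1.91, SE 0.69, adjusted p = 0.028, not called) and at 35.3, 26.2 and 16.3 TPM at P8. In the P9 libraries it was at 1.97 and 2.06 TPM and at P10 at 27.9, 1.46 and 1.15 TPM. The P9 libraries and r2 and r3 of P10 lay below every other whole culture, whereas P10 r1 lay among the P8 values. Against t0 the P9 level was lower by a log2 fold change of -2.50 (SE 0.84, adjusted p = 0.015, not called). At P10 the fold change against t0 was -0.48 (adjusted p = 0.58) with all libraries and -2.74 and called without r1, when 18.7% of all genes were called.

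*NEFM*, the medium chain, differed more between differentiations than between most time points. It was at 14.3, 19.2 and 12.7 TPM at t0, and at P3 at 31.9, 183 and 96 TPM (log2 fold change 2.58, SE 1.01, adjusted p = 0.041, not called). At P5 the values were 31.1, 102 and 150 TPM and at P7 30.7, 25.5 and 18.8 TPM. From P2 to P6 r3 stayed at 96 to 150 TPM, while r2 moved between 16.5 and 183 TPM and r1 did not exceed 49.8 TPM. The ratio of *NEFM* to *NEFL* TPM ran from 1.04 to 6.9 within P5, whereas it was 0.978 to 1.31 at P7. Over 47 libraries *NEFM* and *NEFL* correlated at r = 0.563, and *INA* with *NEFL* at r = -0.036, as a description.

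*PRPH*, a type III gene of peripheral neurons, was low throughout. It was at 0.87, 0.82 and 0.5 TPM at t0, at 5.66, 6.97 and 4.21 TPM at P1 and at 16.7, 0.95 and 2.39 TPM at P2. All P1 libraries exceeded all t0 libraries (log2 fold change 2.71, SE 0.71, adjusted p = 0.0049), but the mean stayed under 100 normalized counts and so the gene was not called. In the P9 libraries it was at 0.44 and 0.1 TPM.

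Beside these neuronal filament genes, markers of neurons were called in either direction. Of 17 neuron markers, 16 were tested, and against t0 1 was called as higher and 2 as lower at P5 (14.2% of all genes were called), 2 and 0 at P7 (15.2%), 2 and 1 at P9 (19.8%) and 3 and 2 at P10 (18.3%). Their median log2 fold change was 0.47, 1.05, 0.09 and 1.07 at these time points, beside -0.04, -0.03, -0.02 and -0.01 over all genes. *SNAP25*, a gene of synaptic vesicle fusion, was called as higher at every time point from P1 to P10 (log2 fold change 3.22 to 5.09), *GAP43*, a gene of growing axons, from P7 to P10 (2.20 to 3.56) and *STMN2*, a regulator of microtubules, at P10 (3.91, adjusted p = 0.0056). Called as lower were *RBFOX3* at P3, P4, P8 and P9 (-4.39, adjusted p = 0.0057 at P9) and 2 further genes. *ELAVL2* was lower from 36h to P3 and at P5, P6 and P10 (-1.99, adjusted p = 0.0011 at P10). *SYT1* was lower from P4 to P6 and at P8 and P10 (-1.96, adjusted p = 0.0032 at P10). The summed TPM of the 17 markers was 315 to 357 at P8 and 262 and 769 at P9, and *TUBB3*, a neuronal tubulin, averaged 167 and 256 TPM there.

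**Figure D4:**
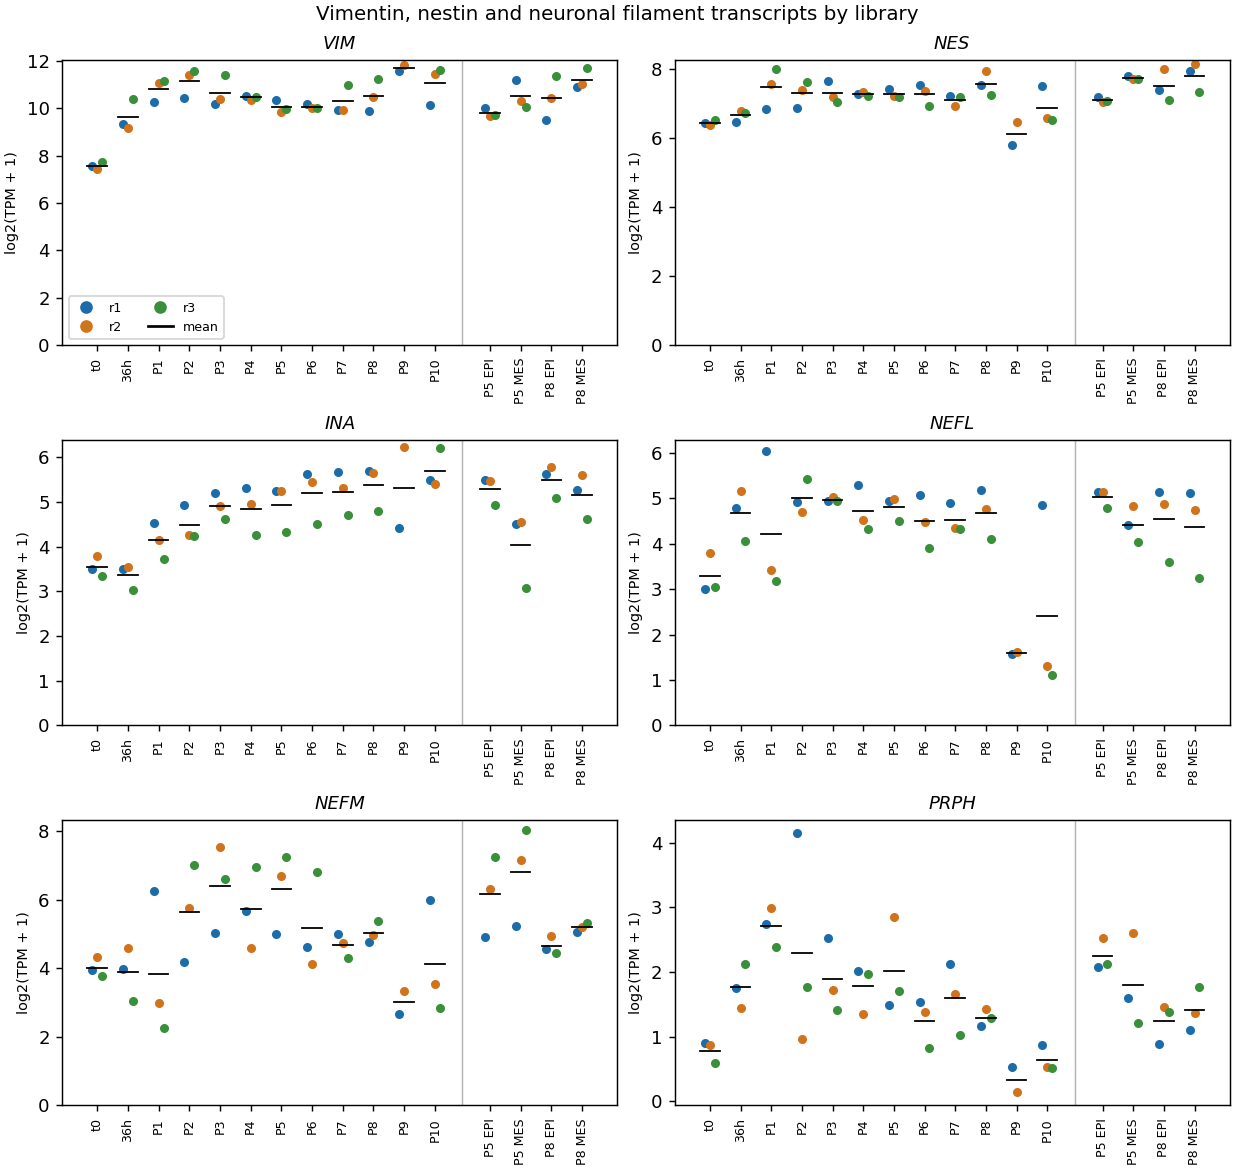
Level of *VIM*, *NES*, *INA*, *NEFL*, *NEFM* and *PRPH* as log2(TPM + 1) in every library, drawn as for the keratins. *VIM* rises from 170 to 212 TPM at t0 to 3017 and 3584 TPM at P9, *INA* rises over the passages, and *NEFL* drops to 1.97 and 2.06 TPM at P9 while P10 r1 (blue) keeps 27.9 TPM.

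Between neighbouring time points after 36h, members were called in the step from P8 to P9 and in no other. In the 8 other steps after P1 the share of all genes called was 0% to 0.0277%. From P8 to P9, where 1.21% of all genes tested were called, *KRT18* fell (log2 fold change -2.96, SE 0.66, adjusted p = 0.0084) and so did *NES* (-1.44, SE 0.32, adjusted p = 0.0089). *KRT8* (-3.03, adjusted p = 0.026) and *NEFL* (-3.76, adjusted p = 0.012) missed the threshold, with standard errors of 0.85 and 0.89. With DESeq2, which called 3.75% of all genes, *KRT8* and *NEFL* as well as *VIM* were called in this step. Without P10 r1, which takes no part in the step but in the shared estimate of the spread, *KRT8* (log2 fold change -2.94, adjusted p = 0.0064), *NEFL* (-3.73, adjusted p = 2.8e-04) and *VIM* (1.36, adjusted p = 0.0067) were called too, beside 2.91% of all genes. The P9 group holds 2 libraries, and the calls depend on the fit. Without the replicate block neither was called (adjusted p = 0.1 for *KRT18* and 0.023 for *NES*), and the same-numbered P8 and P9 libraries deviated together at a mean r of only 0.02. Without replicate 1 or replicate 2, P9 held 1 library, so no call is read from those fits. Without replicate 2 the log2 fold change was -2.91 for *KRT18* and -1.60 for *NES*. Without replicate 3 it was -3.14 for *KRT18* and -1.58 for *NES*. No member was called in that fit, beside 0 of 21012 genes. In the same step 2 of 10 NC and mesenchymal markers were called as higher, and 6 pre-neural progenitor markers, none of them called, summed to 192 to 769 TPM at P8 and to 19.8 and 25.1 TPM at P9. The part of these markers in the members' change was not tested.

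No member was called from 36h to P1, where 1.2% of all genes were, or from P5 to P8, where 0.00924% were. No member was called from P8 to P10 either, where 0.0878% were. That comparison turns on P10 r1: without it *KRT8* (log2 fold change -3.16) and *NEFL* (-4.05) were called, and the share of all genes called rose to 3.86%. In *KRT8* and *NEFL* the P10 libraries r2 and r3 lay below both P9 libraries, and P10 r1 lay within the P8 range.

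The fractions ask whether filament genes differed between EPI and MES cells of the same passage. *INA* had the smallest adjusted p. In the P5 EPI libraries it was at 44.3, 43.2 and 29.7 TPM, and in the P5 MES libraries at 21.6, 22.5 and 7.46 TPM, so that every MES library lay below every EPI library. The log2 fold change of MES against EPI was -1.28 (SE 0.19, adjusted p = 0.016), past 5%, which 2.63% of all genes tested passed with a 2-fold change, but not past the 1% set for a call. The test with 1 block per differentiation over both passages called none of the 18924 genes at P5 (0%), although 4862 had an unadjusted p under 0.05. DESeq2 with the same block called 688 of 18885 genes (3.64%), with *INA* as the only member. In a fit chosen after the data were seen, with a block for each differentiation at each passage, 328 genes (1.73%) were called, among them *INA* (log2 fold change -1.29, SE 0.19, adjusted p = 0.0074). With only the compared libraries 228 of 17664 genes were called, and with all 47 libraries in 1 fit 14 of 22066. Neither set held a member.

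*NES* was higher in the P5 MES fraction in each differentiation, at 222, 209 and 208 TPM against 146, 131 and 134 TPM, without overlap. The log2 fold change was 0.66 (SE 0.20, adjusted p = 0.084; 0.0073 with a block per passage), which is under 2-fold. *VIM* was at 2299, 1246 and 1067 TPM in the P5 MES and 1028, 805 and 826 TPM in the P5 EPI libraries (log2 fold change 0.83, SE 0.45, adjusted p = 0.29). Every MES library exceeded every EPI library, and the ratio of normalized counts within a differentiation ran from 1.34 to 2.2. *NEFL* was lower in MES in all 3 differentiations, by ratios of normalized counts of 0.595 to 0.8, and *NEFM* was higher in all 3, by ratios of 1.32 to 1.69, so the light and medium chains differed in direction. Neither was called (adjusted p = 0.23 and 0.44, or 0.012 and 0.014 with a block per passage).

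No keratin was called between the P5 fractions by the test with 1 block per differentiation, which called 0 of 18924 genes. Nor was any called with a block for each differentiation at each passage, which called 1.73% of all genes. There the log2 fold change was -0.775 for *KRT18* (SE 0.28, adjusted p = 0.093) and -0.681 for *KRT8* (SE 0.31, adjusted p = 0.16). The ratios of the keratins differed between differentiations. Values from the first test follow. *KRT18* was at 92.8, 111 and 77.9 TPM in EPI and at 79.5, 75.3 and 24.8 TPM in MES (log2 fold change -0.85, SE 0.37, adjusted p = 0.20). *KRT8* was at 66.5, 68.5 and 51 TPM in EPI and 60.8, 51 and 16.3 TPM in MES (-0.76, SE 0.45, adjusted p = 0.33). In r3 the MES to EPI ratio of normalized counts was 0.333 for *KRT18* and 0.325 for *KRT8*, against 0.841 and 0.963 in r1. *KRT19* was at 0.75 to 3.25 TPM in all P5 fractions, and *KRT7* did not pass the count filter.

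At P8 no difference between fractions was called (0% of 18924 genes, with 2275 at an unadjusted p under 0.05 and 56, or 0.297%, called by DESeq2, none of them a member). *INA* was at 48.3, 54 and 33 TPM in EPI and 37.6, 47.5 and 23.7 TPM in MES, lower in each differentiation (log2 fold change -0.38, SE 0.19, adjusted p = 0.47). *VIM* was higher in MES in each, at 1909, 2045 and 3320 TPM against 732, 1372 and 2640 TPM (0.60, SE 0.45, adjusted p = 0.62), but r3 of EPI exceeded r1 and r2 of MES. Between passages, *INA* in the MES fraction was higher at P8 than at P5 by a log2 fold change of 1.16 (SE 0.19, adjusted p = 0.013), short of a call. Of all genes 0.782% were called between these groups, and 3.28% at an adjusted p under 5%. A difference between fractions that changed with passage was called for no member, beside 0% of 18924 genes. For *INA* this interaction was 0.90 (SE 0.27, unadjusted p = 0.009, adjusted p = 0.83).

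**Figure D5:**
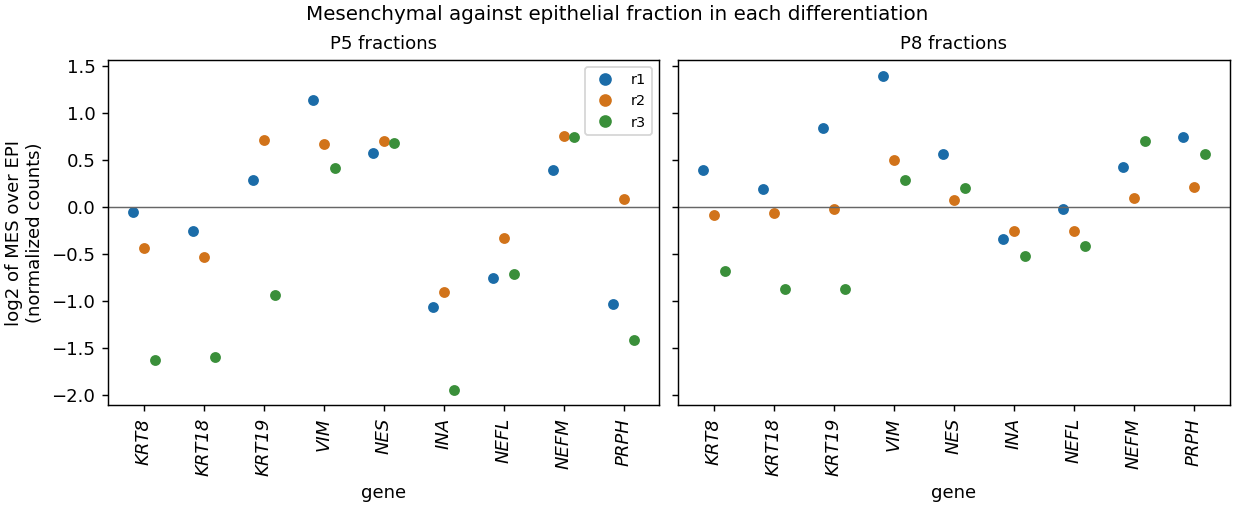
Log2 ratio of normalized counts in the MES over the EPI fraction for 9 members (horizontal axis) in each differentiation at P5 and P8. At P5 *INA* lies at -0.9 to -1.94 and *NES* at 0.578 to 0.711; at P8 *INA* lies at -0.255 to -0.518 and the spread of *KRT8* and *KRT18* includes 0.

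The fractions were checked for the cells they are named after. The 10 NC and mesenchymal markers summed to 562 to 773 TPM in P5 MES and 137 to 361 TPM in P5 EPI, whereas the pre-neural progenitor markers summed to 100 to 287 TPM in MES and 536 to 801 TPM in EPI. At P8 the ranges overlapped: the former summed to 381 to 1410 TPM in MES and 165 to 954 TPM in EPI, and the latter to 58.2 to 490 and 209 to 718 TPM. *SOX10*, an NC gene, averaged 11.8 TPM in P5 MES and 1.29 TPM in P5 EPI. Summed over 10 genes, epithelial markers were low in either fraction at P5 (1.29 to 6.52 TPM in MES, 5.8 to 8.83 TPM in EPI). At P8 they summed to 4.47 to 24.8 TPM in MES and 5.88 to 28.3 TPM in EPI. In neither fraction did these markers reach the t0 level of 1036 to 1238 TPM. The whole culture lay between its fractions in 5 of 6 pairs of passage and differentiation for *KRT8*, *KRT18*, *VIM*, *PRPH*, *NES* and *INA*. It did so in 4 of 6 for *NEFL*, in 3 of 6 for *KRT19* and *NEFM* and in 2 of 6 for *KRT7*, which was near the floor. The count was made for the members only, so it is a description without a share over all genes.

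Genes most alike to the members over 47 libraries differed between the groups of filament genes. *KRT19* was closest to *CLDN6* (r = 0.915), a claudin of embryonic epithelia, and then to *KRT8* (r = 0.91). *NEFL* was closest to *E2F5* (r = 0.898), *INA* to *TLE4* (r = 0.852), *NEFM* to *CD82* (r = 0.811) and *NES* to *AP000892.3* (r = 0.757). Among the members *KRT8* correlated with *VIM* at r = -0.33 and with *NEFL* at r = 0.508. Of 9 other filament genes, 8 were tested, and 2 were called as higher and 0 as lower against t0 at each time point from P4 to P10, beside 14.2% of all genes at P5 and 19.8% at P9. *BFSP1*, whose product builds filaments of the eye lens, was called from P4 to P8 (log2 fold change 1.40, adjusted p = 0.0014 at P5), and *NEFH*, the heavy neurofilament chain, from P3 to P8 (1.27, adjusted p = 0.0034 at P5). Neither was called at P9 or P10, whereas *SYNM*, which forms filaments with vimentin, was called as higher at P9 (1.85, adjusted p = 0.00046) and P10 (1.94, adjusted p = 0.0001). *LMNA*, which encodes nuclear lamins, was also called as higher at P9 (2.40, adjusted p = 0.0075) and P10 (2.88, adjusted p = 0.0012).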

How the data were processed

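The authors trimmed reads with cutadapt 1.16, aligned them to GRCh38 with STAR 2.5.2b and counted them with RSEM 1.3.0, as named in the submitters' processing notes. The deposited files give expected counts and TPM per Ensembl gene for each library. The strand setting and the annotation release are not given in the sources used here. Of the 58051 identifiers, 57447 were matched to a symbol in GENCODE 29, from which the printed stretches were also read. No r3 library of P9 was part of the analysis.

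Expected counts, of which 9.33% were not whole, were rounded and scaled by TMM over all 47 libraries. Genes were filtered with filterByExpr and fitted with edgeR 4.0.16 (R 4.3.3, limma 3.58.1) by the quasi-likelihood F-test, in 1 fit for the 35 whole cultures and 1 for the 12 fractions. The differentiation was a block in both, because each experiment ran through all time points according to the design text. Deviations from group means over 13297 genes correlated between same-numbered libraries at a mean r of 0.59 (P7 and P8), 0.65 (P5 fractions) and 0.78 (P8 fractions), but at -0.01 between t0 and 36h and 0.02 between P8 and P9. Calls needed an FDR under 1%, a change of 2-fold or more and a mean of 100 normalized counts, and 3 counts per library served as the floor. The biological coefficient of variation was 34% in the whole cultures and 22.8% in the fractions. DESeq2 1.42.0, other filters and scalings, and fits without single libraries served as alternatives. The scripts were tested on simulated data.

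The 10 members, the other gene lists and the rule for naming genes (members in full, and of each list the called genes with the largest changes) were chosen with earlier results of these data known. Likeness was Pearson's r of log2 CPM with a prior count of 2.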

Additional observations from a re-analysis of the deposited data

How the results depend on the processing

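Of 55 member results called in the comparisons, 21 kept their call under every alternative that could test them. None of the 55 changed sign under an alternative. Against t0 the 53 calls became 27 (without replicate 3) to 59 (without P10 replicate 1) when libraries were left out. Over all genes, 3084 of 21649 were called at P5 in the main fit. This became 2150 of 21012 without replicate 3 and 3209 of 21580 without P10 replicate 1. Without the replicate block, that is with no pairing by differentiation, 37 of the 55 calls were kept, and with DESeq2 all 55. The 4 calls between neighbouring time points became 8 at an FDR under 5%, 8 with DESeq2, 2 without the 2 shallowest libraries, 1 without the replicate block and 0 with only the compared libraries, and ranged from 0 (without replicate 2 or replicate 3) to 8 (without replicate 1). From P8 to P10 the 0 calls became 0 to 4, with 4 without replicate 1 and 2 without P10 replicate 1. Between the P5 fractions the 0 calls became 1 (*INA*) at an FDR under 5%, without the count filter, with DESeq2 and with the block per passage, the last chosen after the data were seen. Between P8 MES and P5 MES they became 1 at an FDR under 5% and without the filter, and 2 with DESeq2 (*INA* and *NEFM*). The test of any difference over time called 2 members (*KRT18* and *VIM*, without replicate 3) to 8 (without replicate 1) when libraries were left out, and 9 with no minimum mean. The P10 to t0 log2 fold change of *NEFL*, -0.483 and not called, was 0.076 without the replicate block and ran from -2.995 (called, without replicate 1) to 0.389 (without replicate 2). Of 24 pairs of a member and a most alike gene, 8 recurred over the 16 group means and 12 over the 35 whole cultures. The cause of these shifts was not tested. Without replicate 1 or replicate 2, P9 held 1 library, so the other groups gave the spread in those fits. *KRT7* lay at or under the floor of 3 counts in most libraries, so its later changes are bounds. Nothing in the labels says that the differentiations used separately thawed cells, so p-values cover only the spread between them.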
